A study of Mus musculus with 8 samples.

Results

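The nuclear genes of respiratory complex I were followed in injured mouse kidney. The members are all protein-coding nuclear genes whose symbol starts with Nduf, and 46 of the 42256 gene identifiers in the count table met that rule. They comprise 38 subunit symbols and 8 assembly factors (Ndufaf1 to Ndufaf8), which are kept apart here. Of the 38, 36 encode subunits of complex I. The other 2 do not: Ndufa4, a subunit now placed in complex IV, and its paralog Ndufa4l2, known as a gene induced by low oxygen. Genes annotated as pseudogenes with such symbols (Ndufa11b, Ndufab1-ps, Ndufb4c and Ndufs6b) were left out by the rule.

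RNA was sequenced from flash-frozen kidney tissue of 8 adult male mice of mixed background (Mixed:129S1/Sv x C57BL/6), 4 labelled CDH11+/+ and 4 labelled CDH11-/-. Cdh11 encodes cadherin-11, an adhesion protein of mesenchymal cells, and the labels do not describe the knockout allele. Every mouse of either genotype received aristolochic acid, a plant toxin that damages the proximal tubule, at 3 mg/kg on each of 5 days, and was killed 2 weeks after the last dose. No uninjured kidney was analysed here, so each value below is a level or a genotype difference within injured tissue.

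Complex I, NADH:ubiquinone oxidoreductase, is the largest enzyme of the mitochondrial respiratory chain. Its matrix arm takes electrons from NADH and passes them along iron-sulfur clusters to ubiquinone, and its membrane arm pumps protons. A set of core subunits conserved from bacteria does the catalysis, the membrane part of that set being encoded by mitochondrial DNA, while accessory subunits surround the core and assembly factors help build it and then leave. In kidney the enzyme is known for its abundance in the tubule segments that reabsorb most salt and solute, chiefly the proximal tubule and the thick ascending limb.

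The targeted gene did not bear out the genotype labels. Cdh11 stood at 75.6, 58.04, 61.7 and 58.99 CPM in replicates 1 to 4 labelled CDH11+/+ and 89.9, 91.3, 112 and 117 CPM in those labelled CDH11-/- (CPM, counts scaled to a common library size with TMM, a correction for composition). All 4 libraries labelled CDH11-/- were above all 4 labelled CDH11+/+, with a log2 fold change (CDH11-/- minus CDH11+/+, as throughout) of 0.69 ± 0.11 (SE, adjusted p = 0.0243 in edgeR). This call was lost without CDH11+/+ replicate 2, 3 or 4 or CDH11-/- replicate 3 or 4 (adjusted p of 0.0525 to 0.112) and with the authors' normalized values, where the log2 fold change was 0.26 (limma, adjusted p = 0.524). A total over the gene does not show whether reads came from a deleted part of it. The groups are therefore named by their labels only, and every direction below is between libraries labelled CDH11-/- and libraries labelled CDH11+/+.

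Libraries held 10675309 to 18539479 counts, and each complex I subunit had at least 293 counts in every library. Of the 15852 genes that passed the filter on low counts, 114 (0.719%) were past an adjusted p of 0.05 in the edgeR quasi-likelihood test, 55 (0.347%) lower and 59 (0.372%) higher in the libraries labelled CDH11-/-. Leaving out 1 library in turn gave 26 to 1004 such genes. Each omission but that of CDH11+/+ replicate 3 (77 genes) moved the count by more than 1.5 times, with 1004 reached without CDH11+/+ replicate 1.

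What the promoters of the Nduf genes hold is shown before their levels, because the sequences are what the rule on symbols did not use. RefSeq promoters of GRCm38.p6 (250 bases before to 50 after the transcript start) were at hand for 40 of the 46 members, as 42 sequences. They were searched on both strands for 4 motifs of factors known from work on mitochondrial genes: NRF1 (GCGCA, any base, then GCGC), the ETS family that includes GABPA (CCGGAAG), estrogen-related receptors (TNAAGGTCA) and YY1 (AANATGGCG). A match says only that the letters are present, and none of these shares was tested.

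The NRF1 letters occurred in 10 of the 42 member promoters (23.8%), which belong to 9 genes, against 8.66% of 14881 promoters of tested genes and 4.60% of all 32851 promoters. Ndufa5 enters with overlapping promoters that hold the same match, so that site is counted more than once among the 10. The longest stretches that lie outside annotated exons are shown to give the letters their context, written 5′ to 3′ on the strand of the gene, with the matched letters in capitals. They come from chr4:123718220-123718339 (minus strand) for Ndufs5, chr16:37654495-37654614 (minus strand) for Ndufb4, chr17:56717686-56717766 (plus strand) for Ndufa11 and chr4:24897915-24898034 (plus strand) for Ndufaf4.
Ndufs5: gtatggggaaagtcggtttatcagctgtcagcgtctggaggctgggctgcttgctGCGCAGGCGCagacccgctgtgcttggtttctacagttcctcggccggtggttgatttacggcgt
Ndufb4: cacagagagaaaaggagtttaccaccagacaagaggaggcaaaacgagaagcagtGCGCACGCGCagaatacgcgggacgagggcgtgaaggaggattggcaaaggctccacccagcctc
Ndufa11: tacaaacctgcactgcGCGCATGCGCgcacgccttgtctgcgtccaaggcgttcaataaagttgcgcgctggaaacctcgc
Ndufaf4: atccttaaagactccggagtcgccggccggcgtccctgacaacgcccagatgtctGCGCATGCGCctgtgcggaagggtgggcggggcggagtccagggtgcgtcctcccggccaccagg
In Ndufaf4 and Ndufa11 the match is the same on either strand, since GCGCATGCGC is its own reverse complement.

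The promoter of Ndufb4, a membrane arm subunit, held 3 NRF1 matches, at 191, 79 and 22 bases before the start, and the only estrogen-related receptor match among the members, which lies between the latter 2. Its share of 1 in 42 (2.38%) compares with 0.806% of promoters of tested genes. Windows of 30 bases around those matches (minus strand of chromosome 16) and around the NRF1 letters of Ndufa8 (chr2:36049349-36049378, minus strand), Ndufs6 (chr13:73328479-73328508, minus strand) and Ndufaf5 (chr2:140170652-140170681, plus strand) are given because annotated exons reach into them.
Ndufb4: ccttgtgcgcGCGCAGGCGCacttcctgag
Ndufb4: ttcctgagccTGAAGGTCAgactcgagagg
Ndufb4: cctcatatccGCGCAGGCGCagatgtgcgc
Ndufa8: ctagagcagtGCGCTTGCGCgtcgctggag
Ndufs6: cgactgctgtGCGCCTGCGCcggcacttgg
Ndufaf5: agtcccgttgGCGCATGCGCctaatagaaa
In Ndufa8 and Ndufs6 the capitals are the reverse complement of the motif. In Ndufaf5 they lie 17 bases into the transcript.

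The ETS letters occurred in 6 member promoters (14.3%), a share close to the 15.4% of promoters of tested genes, and no member promoter held both NRF1 and ETS letters. Ndufaf1 (chr2:119662828-119662947, minus strand) and Ndufs3 (chr2:90904730-90904759, minus strand) show them shortly before the start.
Ndufaf1: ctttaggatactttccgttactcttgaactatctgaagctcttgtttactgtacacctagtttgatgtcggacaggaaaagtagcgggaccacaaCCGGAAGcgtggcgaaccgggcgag
Ndufs3: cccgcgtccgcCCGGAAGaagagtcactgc
The YY1 letters occurred in 8 member promoters (19.0%) against 4.33% of promoters of tested genes. In 7 of those 8 genes the match begins within 36 bases of the start, on either side of it, as in Ndufa7 (chr17:33824617-33824646, plus strand), Ndufs7 (chr10:80249463-80249492, plus strand) and Ndufs4 (chr13:114388045-114388074, minus strand), and in Ndufb11 it lies 211 bases before the start. The motif contains ATG, the letters of a start codon, so a match this close to the start may overlap the start of translation; which matches do was not tested.
Ndufa7: gagcggaaggAATATGGCGtccgctactcg
Ndufs7: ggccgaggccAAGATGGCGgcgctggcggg
Ndufs4: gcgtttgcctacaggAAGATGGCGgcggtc

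Complex I subunit genes were among the abundant transcripts of the kidney. On a per-length scale (TPM, computed from the counts and the union of annotated exons), the 36 subunits had a median level of 168 TPM, against 15.3 TPM over all tested genes, and the median subunit lay at percentile 95.4 of them. The range ran from 22.6 TPM for Ndufb2, a small membrane arm subunit, to 486 TPM for Ndufa2, a matrix arm subunit with a thioredoxin-like fold. The 8 assembly factors lay lower, with a median of 22.2 TPM, from 15.0 TPM for Ndufaf5 to 47.7 TPM for Ndufaf8. The 7 mitochondrially encoded subunit genes reached a median of 5486 TPM, from 80.7 TPM for mt-Nd6 to 14710 TPM for mt-Nd1. The highest subunit thus lay 21.5-fold above the lowest in mRNA level per length, and part of that range depends on the exon annotation: with the longest annotated transcript as the length, the median of the 36 was 221 TPM and Ndufs1 stood at 98.4 TPM in place of 39.6 TPM.

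**Figure D1:**
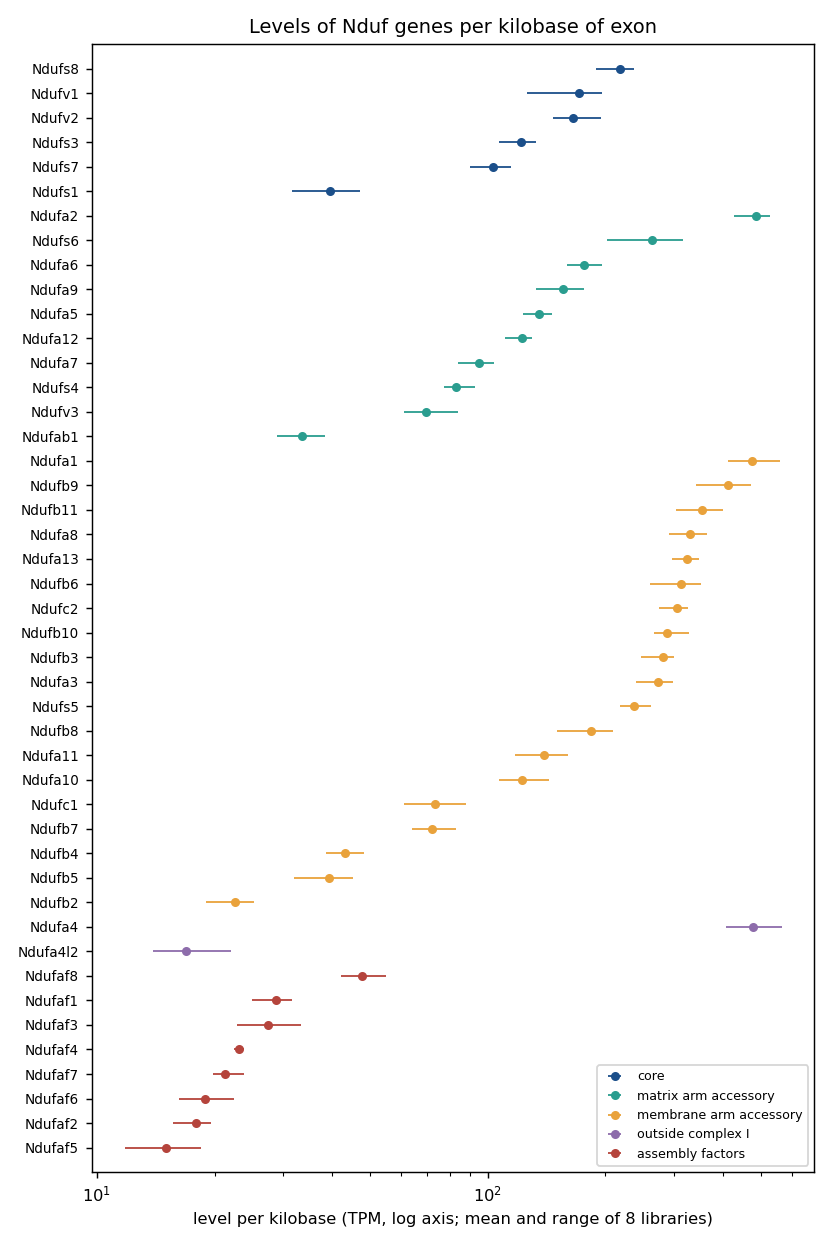
Level per kilobase of exon of 45 of the 46 Nduf genes (TPM, logarithmic axis), as the mean (point) and the range (line) of 8 libraries, in blocks by role and ordered by mean within a block. The assembly factors (15.0 to 47.7 TPM) sit below most subunits (median 168 TPM), and Ndufa4 (479 TPM) lies among the highest.

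Within the order of levels, neighbours were mostly not separated by their spread over libraries. Among the core subunits the ranges of Ndufs8 (218 ± 16.7 TPM, SD over 8 libraries) and Ndufv1 (171 ± 25.5 TPM) overlapped. Ndufs1, at 39.6 ± 5.30 TPM, stood apart below Ndufs7 (103 ± 9.03 TPM). Among the accessory subunits of the membrane arm Ndufa1 was highest at 475 ± 53.1 TPM, followed by Ndufb9 at 413 ± 42.7 TPM, with overlapping ranges. With the longest transcript as length that order turned, with 494 TPM for Ndufb9 and 388 TPM for Ndufa1.

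No Nduf gene passed the threshold between the labelled genotypes: 0 of 46 were called, where 0.719% of all tested genes were. DESeq2 and limma-voom also called 0 members, against 3.04% and 4.28% of genes called in those fits. At an unadjusted p under 0.05 there were 4 members (8.70%; Ndufs1, Ndufa7, Ndufb5 and Ndufaf5), all lower in libraries labelled CDH11-/-, where 7.46% of all genes were lower and 6.62% higher at that level. With DESeq2 there were 3 members at that level, where 12.9% of all genes were, and with limma-voom 18, where 21.9% were. All 46 had passed the filter on low counts, so no member is missing from these counts. Other settings of scaling, filter and moderation also called 0 members, where they called 0.738% of all genes (size factors of DESeq2), 0.757% (scaling by library size only), 0.828% (low counts kept), 0.762% (1 CPM in at least 4 libraries), 0.751% (no robust moderation), 0.341% (limma on the authors' values) and 0.315% (the authors' factors as offsets). Without single libraries other than CDH11+/+ replicate 1 the count was 0 as well, against 0.193%, 0.48% and 0.162% of all genes without CDH11+/+ replicates 2, 3 and 4 and 0.238%, 0.451%, 0.256% and 0.349% without CDH11-/- replicates 1 to 4.

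The estimates nevertheless lay almost all on the same side. The log2 fold change was below 0 in 45 of 46 members (97.8%), where it was below 0 in 52.2% of all tested genes, and Ndufa4l2 was the exception. Its median was -0.14 over the 38 subunit symbols and -0.12 over the 8 assembly factors, against -0.01 over all tested genes. In percent, the median difference was -9.33% for the 36 complex I subunits and -8.02% for the assembly factors. These counts are a description, since the members share the 8 libraries and vary together in them, as shown further on.

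The size of the differences was close to their error. The median standard error was 0.11 for subunits, and the 95% interval included 0 in 42 of 46 members. No member had all 4 libraries labelled CDH11-/- below all 4 labelled CDH11+/+ (0 of 46), an arrangement found in 3.74% of all tested genes, and none had the reverse (3.59% of all genes). The lowest interval bounds were -0.60 among subunits (Ndufv1) and -0.70 among assembly factors (Ndufaf5), so differences of that size are within what these libraries allow for those genes. In whole kidney, fewer cells of a type and less RNA per cell cannot be told apart.

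**Figure D2:**
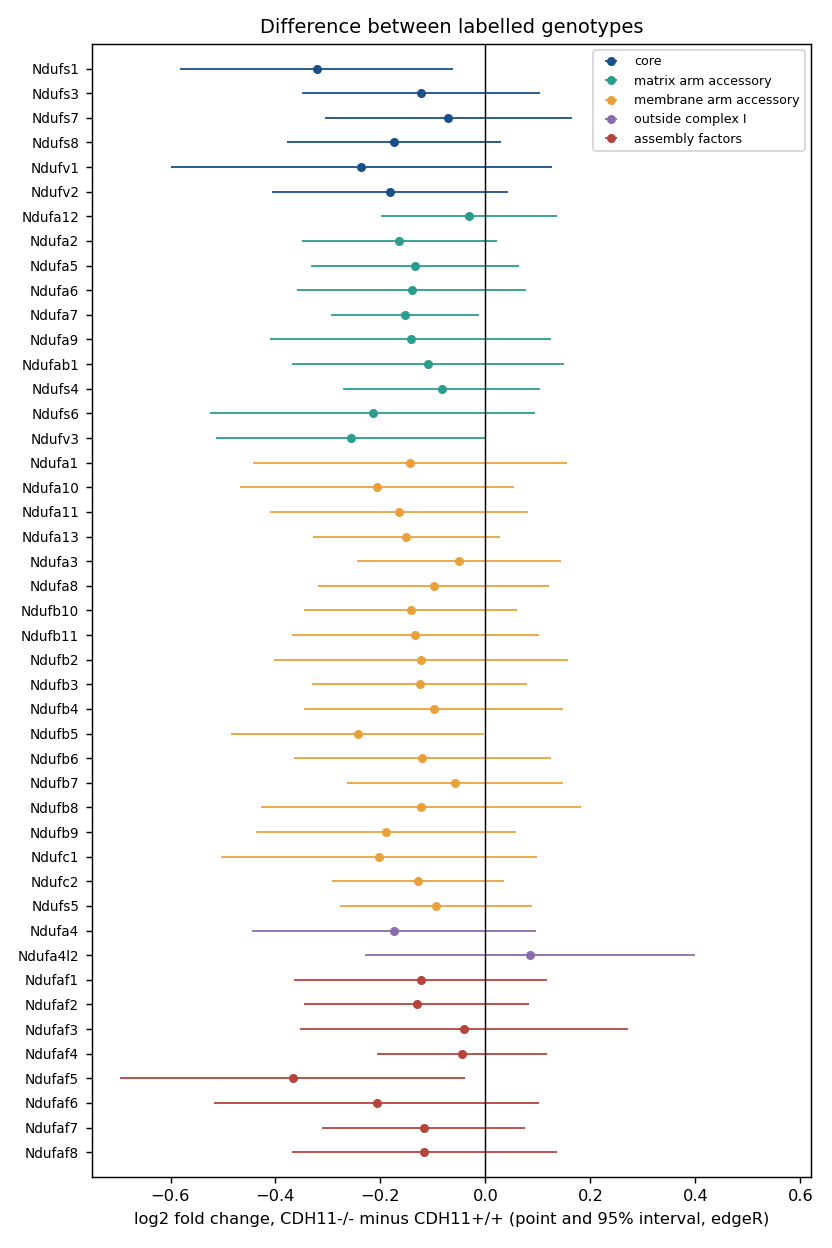
Log2 fold change of 45 of the 46 Nduf genes, CDH11-/- minus CDH11+/+, as the estimate (point) and its 95% interval (line) from edgeR, in blocks by role. Of the 45 points 44 lie below 0, and 41 of the 45 intervals include 0.

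The core subunits of the matrix arm carry the flavin and the iron-sulfur clusters. Their 7 nuclear genes had a median log2 fold change of -0.18, from -0.32 for Ndufs1 to -0.07 for Ndufs7, and 0 of 7 were called. Gene positions here and below are those of GENCODE M21 on GRCm38. Ndufs1 (ENSMUSG00000025968, chr1:63143596-63176833, minus strand), which encodes the large cluster-bearing subunit near the NADH site, stood at 106, 154, 152 and 137 CPM in replicates 1 to 4 labelled CDH11+/+ and 108, 123, 111 and 96.3 CPM in those labelled CDH11-/-. Replicate 1 labelled CDH11+/+ fell among the libraries labelled CDH11-/-, while the other 3 labelled CDH11+/+ were above all 4 of them. Group means were 137 ± 22.1 CPM (SD, n = 4) against 109.6 ± 10.98 CPM (SD, n = 4), with a log2 fold change of -0.32 ± 0.12 (SE, adjusted p = 0.256 in edgeR). That was the smallest adjusted p of any member.

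Ndufs1 was past the threshold in 2 of the 18 alternatives. Without CDH11+/+ replicate 1 its log2 fold change was -0.42 (edgeR adjusted p = 0.0138), in a fit that called 6.25% of genes, and with 1 surrogate variable as a covariate it was -0.20 (edgeR adjusted p = 0.0392), in a fit that called 3.37%. Over all 18 alternatives the adjusted p ran from 0.0138 to 0.563. The exons of Ndufs1 overlap those of Eef1b2 on the other strand, and no source used here says if reads were counted by strand.

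Ndufv1 (ENSMUSG00000037916, chr19:4007384-4012806, minus strand), whose product binds NADH and the flavin, stood at 138, 208, 206 and 198 CPM in replicates 1 to 4 labelled CDH11+/+ and 167, 190.0, 154 and 125 CPM in those labelled CDH11-/-. The lowest library, CDH11-/- replicate 4, and the next, CDH11+/+ replicate 1, came from different groups, and the highest was 1.66-fold above the lowest, the widest spread of any subunit. The log2 fold change was -0.24 ± 0.16 (SE, adjusted p = 0.556 in edgeR). Ndufv2 (ENSMUSG00000024099, chr17:66078638-66101559, minus strand) encodes the cluster-bearing partner of Ndufv1 and stood at 115, 156, 167 and 143 CPM against 124, 137, 119 and 132 CPM (replicates 1 to 4 labelled CDH11+/+ against those labelled CDH11-/-, the order used from here on), with a log2 fold change of -0.18 ± 0.10 (SE, adjusted p = 0.458 in edgeR). Without CDH11+/+ replicate 1 it was called, at -0.27 (edgeR adjusted p = 0.0441). The groups overlapped through CDH11+/+ replicate 1, the lowest of all 8.

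Ndufs7 lies beside the pocket where ubiquinone is reduced. Ndufs7 (ENSMUSG00000020153, chr10:80249121-80256794, plus strand) stood at 57.6, 74.8, 76.1 and 70.8 CPM against 67.96, 77.8, 61.8 and 58.5 CPM, with a log2 fold change of -0.07 ± 0.11 (SE, adjusted p = 0.811 in edgeR). The groups overlapped, and the highest of all libraries was CDH11-/- replicate 2.

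Ndufs3 and Ndufs8 are further core subunits of the matrix arm. Ndufs3 (ENSMUSG00000005510, chr2:90894634-90904827, minus strand) stood at 86.6, 111, 116 and 111 CPM against 98.7, 113, 90.1 and 88.01 CPM and Ndufs8 (ENSMUSG00000059734, chr19:3908863-3912774, minus strand) at 96.05, 127, 118 and 117 CPM against 104, 115, 95.1 and 92.6 CPM. In both genes CDH11+/+ replicate 1 lay with CDH11-/- replicates 3 and 4 at the low end, and CDH11-/- replicate 2 lay within the range of CDH11+/+ replicates 2 to 4 for Ndufs3 and just below it for Ndufs8. The log2 fold changes were -0.12 ± 0.10 (SE, adjusted p = 0.647 in edgeR) for Ndufs3 and -0.17 ± 0.09 (SE, adjusted p = 0.431 in edgeR) for Ndufs8.

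The 10 accessory subunits of the matrix arm had a median log2 fold change of -0.14, from -0.26 for Ndufv3 to -0.03 for Ndufa12, and 0 of 10 were called. Ndufa7 (ENSMUSG00000041881, chr17:33824572-33838317, plus strand), a small subunit of this arm, stood at 64.2, 71.4, 75.7 and 68.3 CPM in replicates 1 to 4 labelled CDH11+/+ and 65.01, 60.7, 64.2 and 61.4 CPM in those labelled CDH11-/-. CDH11+/+ replicate 1 was just below the highest library labelled CDH11-/-, and the spread within each group was small, with means of 69.9 ± 4.86 CPM (SD, n = 4) against 62.9 ± 2.10 CPM (SD, n = 4). The log2 fold change was -0.15 ± 0.06 (SE, adjusted p = 0.313 in edgeR), with a 95% interval of -0.30 to -0.01.

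Ndufv3 (ENSMUSG00000024038, chr17:31520115-31531331, plus strand), at the NADH-binding tip, stood at 71.05, 98.2, 106 and 95.2 CPM against 73.3, 87.01, 71.3 and 79.2 CPM, with a log2 fold change of -0.26 ± 0.12 (SE, adjusted p = 0.356 in edgeR). CDH11+/+ replicate 1 was the lowest of all 8 libraries, and without it the difference was called, at -0.35 (edgeR adjusted p = 0.0205). Ndufa2 (ENSMUSG00000014294, chr18:36742332-36744557, minus strand), the subunit of highest level per union exon length (397 TPM with the longest transcript, below the 494 TPM of Ndufb9), stood at 97.99, 118, 120.3 and 114 CPM against 98.3, 115, 96.6 and 92.4 CPM and had a log2 fold change of -0.16 ± 0.08 (SE, adjusted p = 0.413 in edgeR), with overlapping groups. The remaining members of this block ran from -0.21 (Ndufs6, a zinc-binding subunit) to -0.03 (Ndufa12). They are Ndufs4, Ndufs6, Ndufa5, Ndufa6, Ndufa9, Ndufa12 and Ndufab1, the mitochondrial acyl carrier protein, which also serves fatty acid and lipoate synthesis. Adjusted p for these 7 ran from 0.531 (Ndufs6) to 0.895 (Ndufa12).

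The 19 accessory subunits of the membrane arm had a median log2 fold change of -0.13, from -0.24 for Ndufb5 to -0.05 for Ndufa3, and 0 of 19 were called. Ndufb5 (ENSMUSG00000027673, chr3:32736990-32751566, plus strand), of the outer part of the arm, stood at 67.6, 86.2, 89.9 and 83.9 CPM in replicates 1 to 4 labelled CDH11+/+ and 68.7, 82.4, 65.6 and 60.2 CPM in those labelled CDH11-/-. The low libraries were CDH11-/- replicates 4, 3 and 1 and CDH11+/+ replicate 1, and CDH11-/- replicate 2 lay just below CDH11+/+ replicates 2 to 4. The log2 fold change was -0.24 ± 0.11 (SE, adjusted p = 0.350 in edgeR).

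Ndufa13 (ENSMUSG00000036199, chr8:69894180-69902558, minus strand), also known as GRIM-19, reaches from the membrane to near the ubiquinone site and stood at 139.5, 178, 168 and 169 CPM against 156, 155, 139 and 140.4 CPM. Ndufa10 (ENSMUSG00000026260, chr1:92439010-92473860, minus strand), which has the fold of a nucleoside kinase, stood at 130.5, 190.0, 190.3 and 163 CPM against 143, 166, 139 and 136 CPM. In both genes CDH11+/+ replicate 1 lay within the range of the libraries labelled CDH11-/- or below it, and the other 3 labelled CDH11+/+ lay above all or nearly all of them. Log2 fold changes were -0.15 ± 0.08 (SE, adjusted p = 0.434 in edgeR) for Ndufa13 and -0.21 ± 0.12 (SE, adjusted p = 0.468 in edgeR) for Ndufa10.

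Ndufa1 (ENSMUSG00000016427, chrX:37187588-37191163, minus strand), a small X-linked membrane subunit, stood at 63.1, 88.97, 93.5 and 75.5 CPM against 67.4, 87.98, 66.99 and 68.5 CPM. Here CDH11-/- replicate 2 lay with the high libraries labelled CDH11+/+, apart from the other 3 of its group, and the log2 fold change was -0.14 ± 0.13 (SE, adjusted p = 0.686 in edgeR). The other members of the block were Ndufa3, Ndufa8, Ndufa11, Ndufs5, Ndufc1, Ndufc2, Ndufb2 to Ndufb4 and Ndufb6 to Ndufb11. Their log2 fold changes ran from -0.20 (Ndufc1, adjusted p = 0.545 by edgeR) to -0.05 (Ndufa3, adjusted p = 0.843), and each had a 95% interval that included 0. Ndufb1 is not among the genes in the counts analysed here. Exons of Ndufb2, Ndufb8 and Ndufb9 overlap another annotated gene on the same strand, so their counts may be shared with it.

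**Figure D3:**
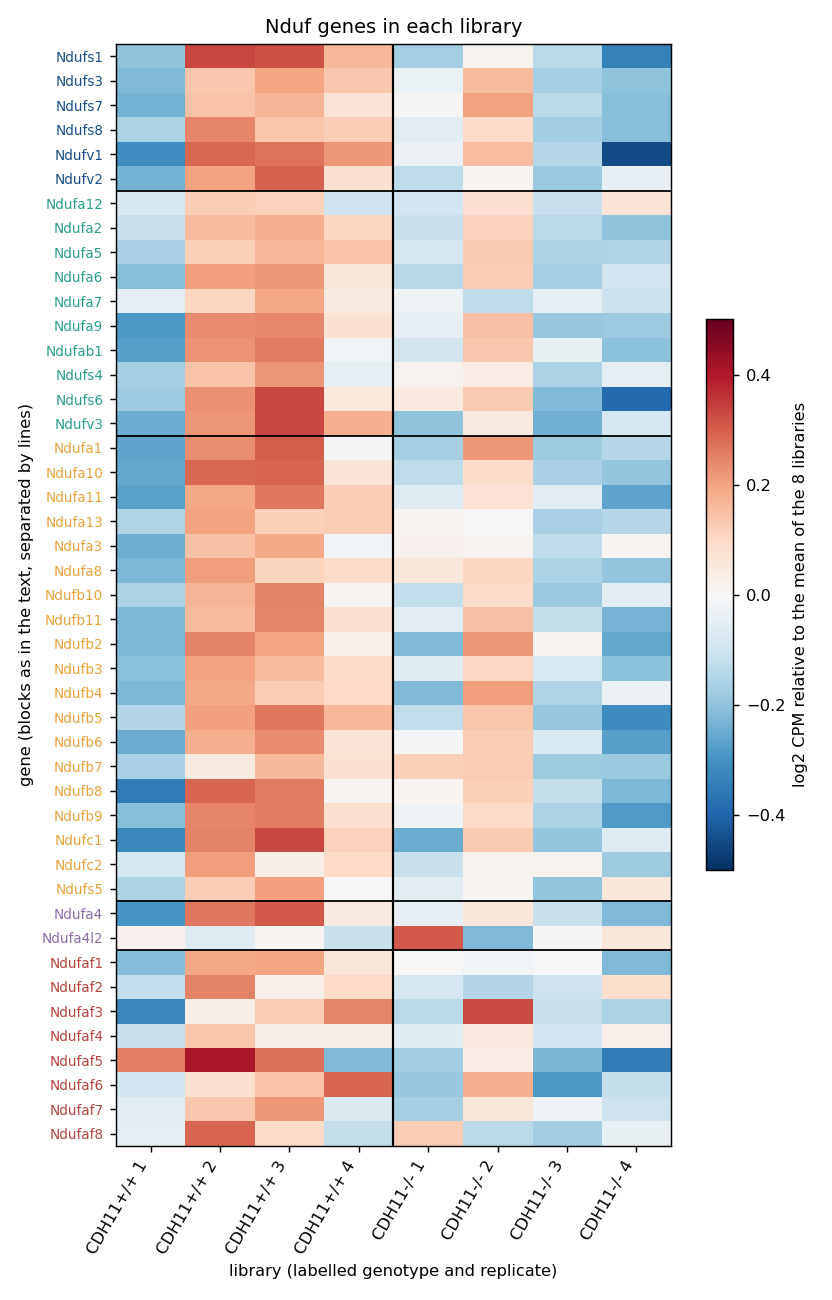
Log2 CPM of 45 of the 46 Nduf genes (rows, in blocks by role) in the 8 libraries (columns), relative to the mean of each gene over the libraries, with colour from -0.5 to 0.5. CDH11+/+ replicate 1 and CDH11-/- replicate 4 are low for most subunits (lowest in 18 and 13 of all 36), and CDH11+/+ replicates 2 and 3 are high (highest in 10 and 24 of 36).

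Assembly factors are not part of the finished enzyme. The 8 with Ndufaf symbols had log2 fold changes from -0.37 (Ndufaf5) to -0.04 (Ndufaf3), and 0 of 8 were called. Ndufaf5 (ENSMUSG00000027384, chr2:140170649-140203689, plus strand), which hydroxylates an arginine of Ndufs7, stood at 12.1, 13.4, 12.3 and 8.71 CPM in replicates 1 to 4 labelled CDH11+/+ and 8.999, 10.4, 8.66 and 7.95 CPM in those labelled CDH11-/-. Unlike in the subunits, CDH11+/+ replicate 1 lay with the high libraries of its group, and CDH11+/+ replicate 4 fell among those labelled CDH11-/-. Means were 11.6 ± 2.04 CPM (SD, n = 4) against 9.004 ± 1.03 CPM (SD, n = 4), with a log2 fold change of -0.37 ± 0.15 (SE, adjusted p = 0.301 in edgeR) and a 95% interval of -0.70 to -0.04. These levels rest on 105 to 177 counts per library.

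Ndufaf8 (ENSMUSG00000078572, chr11:120098928-120100705, plus strand), the partner protein of Ndufaf5, stood at 14.7, 18.5, 16.2 and 13.96 CPM against 16.5, 13.8, 13.5 and 14.8 CPM, with overlapping groups and a log2 fold change of -0.12 ± 0.11 (SE, adjusted p = 0.703 in edgeR). Ndufaf6 (ENSMUSG00000050323, chr4:11051045-11076205, minus strand) acts early in assembly and stood at 8.30, 9.42, 9.81 and 10.9 CPM against 7.79, 10.1, 7.29 and 8.18 CPM, with a log2 fold change of -0.21 ± 0.14 (SE, adjusted p = 0.552 in edgeR). Ndufaf2 (ENSMUSG00000068184, chr13:108002715-108158623, minus strand), a paralog of Ndufa12 that holds its place during assembly, stood at 18.7, 24.2, 20.7 and 21.8 CPM against 19.2, 18.4, 18.9 and 21.7 CPM, with a log2 fold change of -0.13 ± 0.10 (SE, adjusted p = 0.587 in edgeR). In each of these 3 genes the groups overlapped.

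The other assembly factors had log2 fold changes of -0.12 for Ndufaf1, of the complex that builds the membrane arm, -0.04 for Ndufaf3 and -0.04 for Ndufaf4, which act together on the ubiquinone module, and -0.12 for Ndufaf7. Assembly factors of other names were taken from a list of 11, of which 10 were tested. All 10 had a negative log2 fold change (median -0.10), and 0 were called. Tmem126b, a partner of Ndufaf1, stood at 36.5, 37.4, 37.97 and 34.8 CPM against 32.7, 32.4, 33.3 and 32.5 CPM. Its groups did not overlap, and its log2 fold change was -0.16 ± 0.06 (SE, adjusted p = 0.270 in edgeR). Tmem126a, its paralog, had a log2 fold change of -0.15 ± 0.09 (SE, adjusted p = 0.499 in edgeR).

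The 2 symbols outside complex I had estimates of opposite sign, and their difference was not tested. Both 95% intervals included 0 (-0.45 to 0.10 for Ndufa4 and -0.23 to 0.40 for Ndufa4l2). Ndufa4 (ENSMUSG00000029632, chr6:11900292-11907497, minus strand) stood at 205, 303, 311 and 259.5 CPM in replicates 1 to 4 labelled CDH11+/+ and 245, 262, 233 and 216 CPM in those labelled CDH11-/-, with the same low (CDH11+/+ replicate 1) and high (CDH11+/+ replicates 3 and 2) libraries as the complex I subunits and a log2 fold change of -0.17 ± 0.12 (SE, adjusted p = 0.565 in edgeR). Ndufa4l2 (ENSMUSG00000040280, chr10:127514967-127517154, plus strand) stood at 7.11, 6.69, 7.04 and 6.48 CPM against 8.66, 6.01, 7.02 and 7.27 CPM. The highest library was CDH11-/- replicate 1 and the lowest CDH11-/- replicate 2, so the groups overlapped throughout, and the log2 fold change of 0.08 ± 0.14 (SE, adjusted p = 0.837 in edgeR) was the only positive value among the members. It was -0.0028 without CDH11-/- replicate 1. Each of its libraries holds 77 to 133 counts.

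Across libraries the subunits moved as a block, and that common movement followed the labels only in part. A score was taken as the mean over the 36 subunits of log2 CPM relative to each gene's own mean. It was -0.21, 0.20, 0.22 and 0.07 in replicates 1 to 4 labelled CDH11+/+ and -0.07, 0.10, -0.14 and -0.17 in those labelled CDH11-/-. CDH11+/+ replicate 1 was thus the lowest of the 8, and CDH11-/- replicate 2 lay above CDH11+/+ replicate 4. All 36 subunits were lower in CDH11+/+ replicate 1 than in the mean of CDH11+/+ replicates 2 to 4.

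Relative to one another the subunits varied less. The median range of a subunit over the 8 libraries was 0.47 on the log2 scale, and 0.22 once the mean of the other subunits in each library was subtracted. The range became smaller in 33 of 36 subunits, the exceptions being Ndufa7, Ndufa12 and Ndufb7. Relative to the others, Ndufs1 was the lowest in libraries labelled CDH11-/- (a difference of -0.17), lying from 0.0063 to 0.14 in those labelled CDH11+/+ and from -0.17 to 0.0049 in those labelled CDH11-/-. Ndufa12 was the highest (a difference of 0.12), with overlapping groups. These relative values were computed after the levels had been seen and were not tested.

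**Figure D4:**
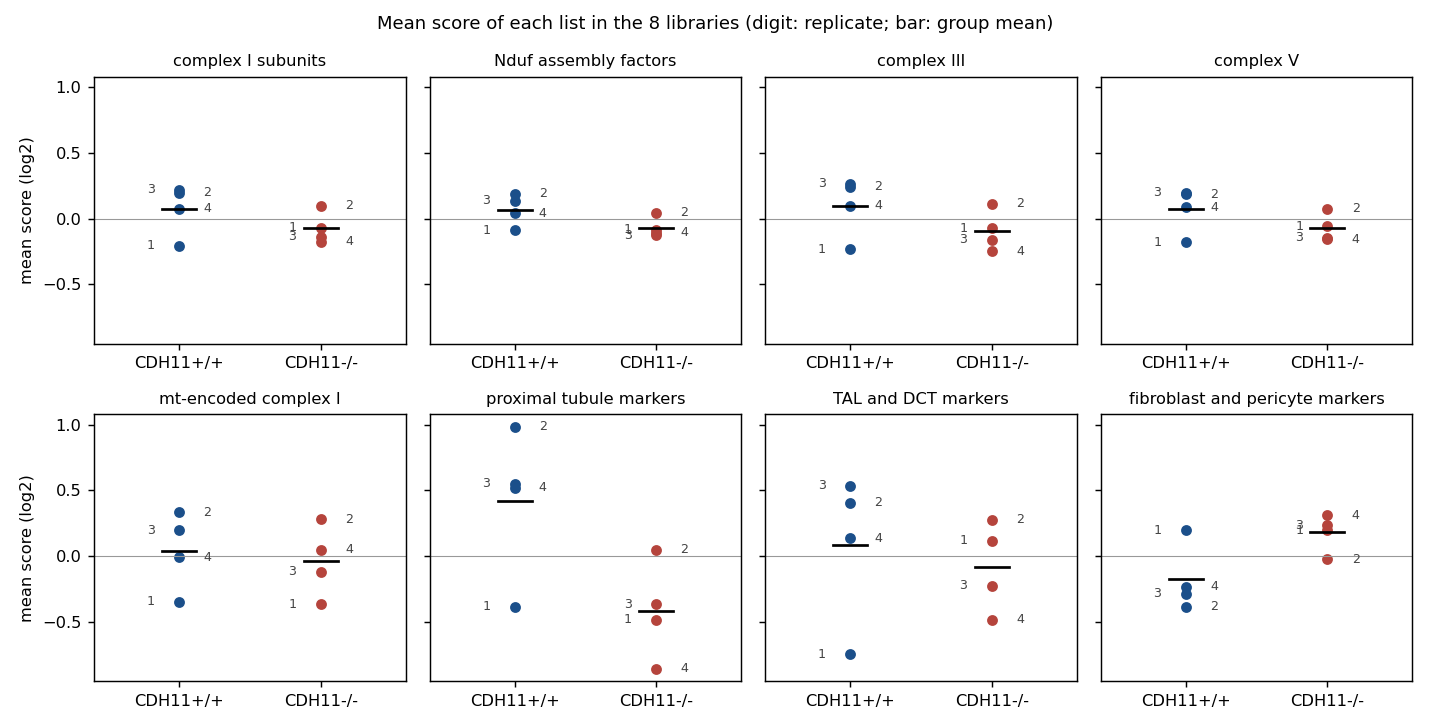
Mean score of 8 gene lists in each library (points, numbered by replicate; bar, mean of 4), as log2 CPM centred on the 8-library mean of a gene and averaged over the list. In the nuclear respiratory chain lists CDH11+/+ replicate 1 and CDH11-/- replicates 3 and 4 lie low, and in the proximal tubule list CDH11+/+ replicate 1 (-0.39) lies below CDH11-/- replicate 2 (0.05).

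The other nuclear genes of oxidative phosphorylation mostly lay in the same direction. Their medians were somewhat below the -0.14 of the complex I subunits. The log2 fold change was negative in 4 of 4 genes of complex II (median -0.21), 9 of 9 of complex III (median -0.18), 12 of 12 of complex IV (median -0.15) and 14 of 15 of complex V (median -0.18), with 0 called in each list. Without CDH11+/+ replicate 1, 1 gene of complex II and 2 each of complexes III, IV and V were called, in the fit that called 6.25% of all genes, and limma-voom called 2 of complex III (Uqcrh and Uqcr10 were each past the threshold in 2 of 18 alternatives). Single libraries also moved the medians: complex III ran from -0.28 without CDH11+/+ replicate 1 to -0.11 without CDH11+/+ replicate 3 or CDH11-/- replicate 4, complex IV reached -0.25 without CDH11+/+ replicate 1, and complex V lay between -0.12 and -0.10 without CDH11+/+ replicate 2 or 3 or CDH11-/- replicate 3 or 4. The smallest p-values were those of Sdhb at -0.26 ± 0.12 (SE, adjusted p = 0.360 in edgeR) and Sdha at -0.23 ± 0.12 (SE, adjusted p = 0.404 in edgeR) in complex II, Uqcrh at -0.25 ± 0.09 (SE, adjusted p = 0.228 in edgeR) and Uqcr10 at -0.30 ± 0.11 (SE, adjusted p = 0.257 in edgeR) in complex III, Cox5a at -0.22 ± 0.10 (SE, adjusted p = 0.336 in edgeR) and Cox7a1 at -0.36 ± 0.19 (SE, adjusted p = 0.425 in edgeR) in complex IV, and Atp5j2 at -0.24 ± 0.09 (SE, adjusted p = 0.248 in edgeR) and Atp5e at -0.19 ± 0.09 (SE, adjusted p = 0.365 in edgeR) in complex V. The complex I score minus that of another complex ranged over 0.16 between libraries for complex II, 0.12 for complex III, 0.08 for complex IV and 0.05 for complex V, while the complex I score itself ranged over 0.43. For complex II the difference was -0.03 ± 0.03 (SD, n = 4) in libraries labelled CDH11+/+ and 0.03 ± 0.04 (SD, n = 4) in those labelled CDH11-/-, and none of these differences was tested.

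Genes that feed the chain were alike in direction. In the citric acid cycle 13 of 13 genes were negative (median -0.17), led by Suclg2 at -0.40 ± 0.12 (SE, adjusted p = 0.179 in edgeR) and Dlst at -0.20 ± 0.09 (SE, adjusted p = 0.371 in edgeR). Of the genes that bring electrons to ubiquinone by other routes 7 of 7 were negative (median -0.23), led by Etfdh, which takes electrons from fatty acid oxidation, at -0.28 ± 0.09 (SE, adjusted p = 0.224 in edgeR) and Prodh, proline dehydrogenase, at -0.43 ± 0.22 (SE, adjusted p = 0.441 in edgeR). None of these 20 genes was called, but Suclg2 was past the threshold in 3 of 18 alternatives (edgeR adjusted p = 0.00855 at the lowest) and Dlst and Etfdh in 1 each. The citric acid cycle median was -0.10 without CDH11+/+ replicate 2 or CDH11-/- replicate 4, and that of the genes of other routes to ubiquinone was -0.14 without CDH11-/- replicate 4. In the mitochondrial ribosome 69 of 77 genes were negative (median -0.09), with 0 called (5 without CDH11+/+ replicate 1, where 6.25% of all genes were called). Mrpl28 lay at -0.30 ± 0.09 (SE, adjusted p = 0.148 in edgeR) and Mrpl42 at -0.24 ± 0.08 (SE, adjusted p = 0.216 in edgeR).

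The mitochondrially encoded subunits of complex I did not keep to the order of the nuclear ones. All 7 had a negative log2 fold change (median -0.08, 0 called), led by mt-Nd2 at -0.13 ± 0.16 (SE, adjusted p = 0.769 in edgeR) and mt-Nd1 at -0.12 ± 0.15 (SE, adjusted p = 0.777 in edgeR). Their score was -0.35, 0.33, 0.19 and -0.01 in replicates 1 to 4 labelled CDH11+/+ and -0.37, 0.28, -0.12 and 0.05 in those labelled CDH11-/-. The lowest library was CDH11-/- replicate 1, which lay mid-range for the nuclear subunits, and the median turned positive without CDH11-/- replicate 1 (0.01), without CDH11+/+ replicate 2 (0.01) and with 1 surrogate variable (0.06). The 6 mitochondrial genes of complexes III to V were also all negative (median -0.08, 0 called), with mt-Atp8 at -0.17 ± 0.19 (SE, adjusted p = 0.747 in edgeR) and mt-Co2 at -0.10 ± 0.14 (SE, adjusted p = 0.799 in edgeR), and their median turned positive in the same 3 fits (0.02 without CDH11+/+ replicate 2, 0.01 without CDH11-/- replicate 1 and 0.03 with the surrogate variable). Mitochondrially encoded genes took 6.80 ± 0.976% of counts (SD, n = 4) against 6.65 ± 0.918% (SD, n = 4), a difference within the spread (two-sided exact permutation p = 0.80, the smallest possible being 0.0286).

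The regulators that are known to switch on respiratory chain genes showed no common direction. Of 12, 8 were negative and 4 positive (median -0.04, 0 called), and the median was above 0 with library size alone, limma on the authors' values and the authors' factors as offsets (0.0036 to 0.0084). Ppargc1a, which encodes the coactivator PGC-1alpha, stood at 41.6, 53.9, 60.9 and 53.7 CPM against 53.9, 63.4, 61.3 and 52.4 CPM, with a log2 fold change of 0.14 ± 0.11 (SE, adjusted p = 0.626 in edgeR). CDH11+/+ replicate 1 was the lowest library and CDH11-/- replicate 2 the highest. Log2 fold changes were -0.02 ± 0.08 (SE, adjusted p = 0.944 in edgeR) for Esrra, an estrogen-related receptor, 0.02 ± 0.07 (SE, adjusted p = 0.950 in edgeR) for Nrf1 and -0.03 ± 0.07 (SE, adjusted p = 0.902 in edgeR) for Gabpa. They were -0.18 ± 0.08 (SE, adjusted p = 0.362 in edgeR) for Gabpb1, the partner subunit of Gabpa, and -0.28 ± 0.14 (SE, adjusted p = 0.403 in edgeR) for Ppargc1b.

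Markers of the proximal tubule were high and low in many of the same libraries as the complex I subunits. This likeness was not tested. All 25 proximal tubule markers had negative log2 fold changes (median -0.75). Of these, 0 were called, where 0.719% of all tested genes were. In edgeR 18 had an unadjusted p under 0.05, where 7.46% of all tested genes were lower at that level. In 10 of the 25 all 4 libraries labelled CDH11-/- lay below all 4 labelled CDH11+/+, an arrangement found in 3.74% of all tested genes. The summed level of the markers ran from 6346 to 15370 CPM in libraries labelled CDH11+/+ and from 5048 to 10660 CPM in those labelled CDH11-/-. Slc13a3, a dicarboxylate transporter, stood at 72.8, 163, 105 and 146 CPM against 41.6, 45.7, 45.6 and 38.02 CPM with no overlap, and Slc13a1, a sulfate transporter, at 407, 492, 294 and 386 CPM against 212, 242, 249 and 185 CPM, also with none. Their log2 fold changes were -1.51 ± 0.25 (SE, adjusted p = 0.0528 in edgeR) and -0.83 ± 0.15 (SE, adjusted p = 0.0540 in edgeR), and they were past the threshold in 9 and 5 of 18 alternatives. Of the 25, 12 were called with DESeq2 and 9 without CDH11+/+ replicate 1, where 3.04% and 6.25% of all genes were called. No marker of this or any other cell type list was at 0 in all 8 libraries.

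The 8 markers of the thick ascending limb and distal convoluted tubule placed the 8 libraries in the same order as the 36 subunits. From high to low the order was CDH11+/+ replicates 3 and 2, CDH11-/- replicate 2, CDH11+/+ replicate 4, CDH11-/- replicates 1, 3 and 4, and CDH11+/+ replicate 1. Their score was -0.75, 0.40, 0.54 and 0.13 in replicates 1 to 4 labelled CDH11+/+ and 0.11, 0.27, -0.23 and -0.49 in those labelled CDH11-/-, and their summed level ran from 2704 to 5151 CPM and from 2641 to 4568 CPM. Of these 8 markers 6 were negative and 2 positive (median -0.17, highest 0.15), and the median was 0.13 with 1 surrogate variable. None was called (1 without CDH11+/+ replicate 1, where 6.25% of all genes were called). The 2 of smallest p were negative, Slc12a3, the thiazide-sensitive transporter, at -0.50 ± 0.21 (SE, adjusted p = 0.341 in edgeR) and Cldn16 at -0.19 ± 0.10 (SE, adjusted p = 0.422 in edgeR). With 8 libraries that share their scaling, this likeness is a description. The order was compared for every list. No other cell type list matched it, and neither did the lists of complexes II, III, IV and V. Some steps of the order are small, as between CDH11-/- replicate 2 (complex I score 0.10) and CDH11+/+ replicate 4 (0.07). The complex I score minus the score of these markers ranged over 0.86 between libraries. The complex I score itself ranged over 0.43 and the marker score over 1.285. For complexes II to V, whose own scores ranged over 0.38 to 0.53, the difference ranged over 0.05 to 0.16. The range of such a difference depends on how widely each list ranges, so it does not measure likeness of order.

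Markers of other cells lay the other way or were mixed. Endothelial markers were positive in 10 of 10 (median 0.32; 388 to 508 against 534 to 591 CPM summed), with Flt1 at 0.42 ± 0.08 (SE, adjusted p = 0.0508 in edgeR) and Kdr at 0.43 ± 0.09 (SE, adjusted p = 0.0540 in edgeR). Fibroblast and pericyte markers were positive in 9 of 10 (median 0.38; 1624 to 2338 against 1894 to 2680 CPM), with Rgs5 at 0.29 ± 0.07 (SE, adjusted p = 0.0773 in edgeR) and Pdgfra at 0.49 ± 0.11 (SE, adjusted p = 0.0832 in edgeR). Podocyte markers were positive in 5 of 5 (median 0.29; 338 to 480 against 470 to 577 CPM), with Nphs1 at 0.57 ± 0.13 (SE, adjusted p = 0.0744 in edgeR) and Synpo at 0.29 ± 0.09 (SE, adjusted p = 0.196 in edgeR). Macrophage markers were positive in 9 of 10 (median 0.10; 5916 to 8082 against 6509 to 8396 CPM), with Csf1r at 0.18 ± 0.11 (SE, adjusted p = 0.473 in edgeR) and Lyz2 at 0.20 ± 0.12 (SE, adjusted p = 0.491 in edgeR). Collecting duct markers were split, 5 negative and 4 positive (median -0.06, highest 0.15, 577 to 706 against 526 to 686 CPM summed). The 2 of smallest p were negative, Aqp2 at -0.22 ± 0.10 (SE, adjusted p = 0.332 in edgeR) and Aqp3 at -0.15 ± 0.09 (SE, adjusted p = 0.486 in edgeR). Injured tubule markers were split as well, 4 negative and 3 positive (median -0.18, highest 0.09, 14590 to 16250 against 13260 to 14210 CPM summed). The 2 of smallest p were again negative, Vcam1 at -0.46 ± 0.10 (SE, adjusted p = 0.0744 in edgeR) and Sox9 at -0.37 ± 0.14 (SE, adjusted p = 0.272 in edgeR). None of these markers was called in the main fit. Without CDH11+/+ replicate 1, where 6.25% of all genes were called, the calls were 8 of 10 endothelial, 6 of 10 fibroblast and pericyte, 3 of 5 podocyte, 2 of 10 macrophage and 1 of 7 injured tubule markers. Flt1 was past the threshold in 7 of 18 alternatives, Kdr in 6 and Rgs5 in 5. Pdgfra, Nphs1 and Vcam1 were past it in 4 each, Synpo in 2, and Csf1r and Sox9 in 1 each. The collecting duct median turned positive without CDH11-/- replicate 4 (0.09), without CDH11+/+ replicate 3 (0.02) and without CDH11+/+ replicate 4 (0.0035). With single libraries left out, the macrophage median ran from 0.03 without CDH11+/+ replicate 3 to 0.27 without CDH11+/+ replicate 1. Over all 18 alternatives the lowest macrophage median was -0.0076, so its sign did not hold throughout. CDH11+/+ replicate 1, the library of lowest complex I score, had the highest score of its group for endothelial (-0.0031), fibroblast (0.20), macrophage (0.33) and injured tubule (0.25) markers. For podocyte markers it lay at -0.03, below CDH11+/+ replicate 3 (0.0023), and for collecting duct markers it was the lowest (-0.33).

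How large the difference of the Nduf genes appeared depended on single libraries. The median of the subunit symbols was -0.21 without CDH11-/- replicate 2, -0.09 without CDH11+/+ replicate 3 and -0.10 without CDH11-/- replicate 4, and that of the assembly factors was -0.07 without CDH11+/+ replicate 2. Without CDH11+/+ replicate 1 the median log2 fold change was -0.21 for subunit symbols and -0.16 for assembly factors, 27 members had an unadjusted p under 0.05 (22.0% of all genes did), and 3 were called (Ndufs1, Ndufv3 and Ndufv2), where 6.25% of all genes were called. With 1 surrogate variable, which took the value -0.55 in CDH11+/+ replicate 1 and -0.44 in CDH11-/- replicate 4, the medians were -0.05 and -0.08. In that fit 38 of 46 members were negative and 1 was called (Ndufs1). Over all 18 alternatives 36 of 46 members kept a negative sign throughout, 30 of them among the 36 subunits and 5 among the 8 assembly factors, the remaining one being Ndufa4. Ndufs7, Ndufa12, Ndufa3, Ndufab1, Ndufb7, Ndufb8, Ndufaf3, Ndufaf4 and Ndufaf7 turned positive in at least 1 of them, and Ndufa4l2 turned negative in 1.

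A further feature of the Nduf genes was their place beside other genes. With protein-coding genes on the other strand whose start lies within 1000 bases counted as head to head, 21 of 46 members (45.7%) had such a neighbour, against 2091 of 14359 tested protein-coding genes (14.6%). This comparison was added after the values had been seen and was not tested. Of the 21 neighbours 19 were tested, and 10 had a negative and 9 a positive log2 fold change (median -0.0007), with 0 called. Ndufs1 and Eef1b2, a translation elongation factor gene, overlap at their starts and had log2 fold changes of -0.32 and -0.05. Ndufaf5 and Esf1 start 85 bases apart and had -0.37 and 0.06, and Ndufa7 and Rps28, a ribosomal protein gene, start 10 bases apart and had -0.15 and 0.04. In 17 members exons overlap those of a gene on the other strand, and in such pairs reads of either gene may not have been told apart.

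**Figure D5:**
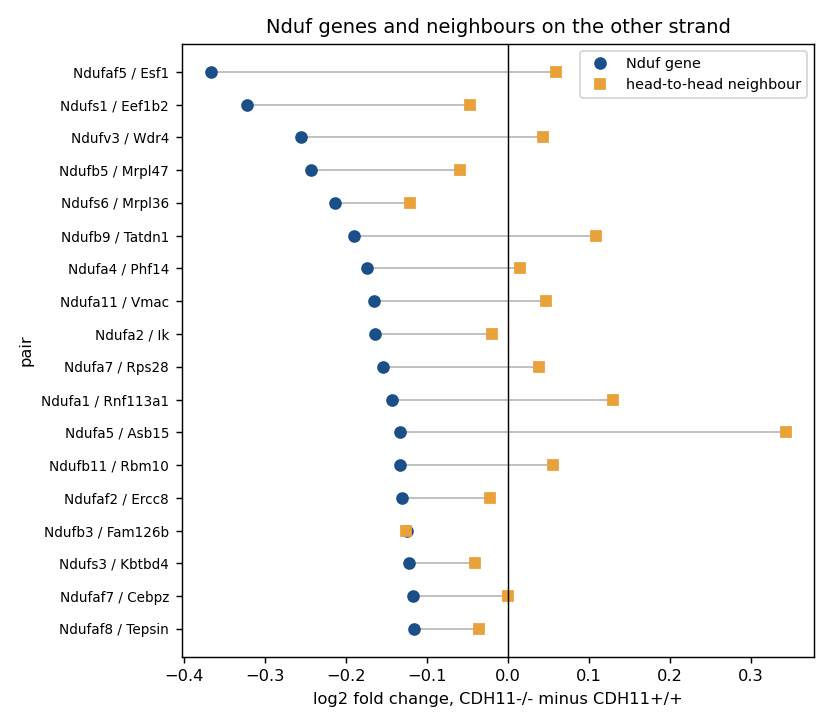
Log2 fold change, CDH11-/- minus CDH11+/+, of 18 Nduf genes (circles) and of their tested head-to-head neighbours (squares), joined by a line per pair and ordered by the Nduf gene. All 18 Nduf genes lie below 0, and the neighbours lie on both sides of it, 9 below and 9 above.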

How the data were processed

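RNA-seq of 8 kidneys was analysed, grouped by the genotype in the labels. Replicates carry no number, litter or batch in the labels and were numbered in accession order, so p-values measure the spread between these samples. The injury was taken from the labels, since the title of the series gives Unx/AngII instead. The authors deposited whole-number counts per Ensembl gene and a normalized signal per gene. The submitters' processing notes name DRAGEN, DESeq2 and mm10. For tool versions, annotation and use of strand, the sources used here give nothing. In the deposited signal counts were divided by factors specific to gene and sample, so it served as an alternative only. There were 0 columns of other samples.

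All 42256 identifiers had a name in GENCODE M21 (GRCm38). The test was edgeR's quasi-likelihood test (edgeR 4.0.16, R 4.3.3) after TMM, with low counts removed by filterByExpr, dispersions moderated robustly and Benjamini-Hochberg adjustment over 15852 genes at 0.05. The scripted fit was tested on simulated counts. Scores use log2 CPM with a prior count of 2. Members and gene lists were chosen with earlier results of these data known. Values are given by library for the core subunits, Ndufa4, Ndufa4l2 and, in each other block, the 3 members of smallest p, the member of highest level and any positive one. Of the core subunits 1 is not reported here by name and is counted in totals only. From each other list the 2 genes of smallest p are named, and Ppargc1a, Esrra, Nrf1 and Gabpa always. Alternatives were other scalings, filters, DESeq2 1.42.0, limma-voom with quality weights (limma 3.58.1), plain moderation, limma applied to log2 of the deposited signal with a pseudocount of 1, the authors' factors as offsets, 1 surrogate variable (sva 3.50.0), leaving out each library in turn and, for levels, the longest transcript as length. Head-to-head neighbours and relative levels were added after the values had been seen.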

Additional observations from a re-analysis of the deposited data

Results flagged for a closer look

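In each group of 4 libraries a value was set apart when its gap to the nearest other library, divided by the range of the group, was above the 95% critical value of Dixon's test. Of 150 groups examined 9 had such a library, and chance sets apart about 1 in 20. CDH11+/+ replicate 1 was the low library for Ndufs3 (86.6 CPM, the others at 111 to 116), Ndufv1 (138 CPM, the others at 198 to 208) and Ndufa5 (47.8 CPM, the others at 58.0 to 59.9), and for the score of the other complex I assembly factors (-0.10, the others at 0.08 to 0.11). CDH11-/- replicate 2 was the high library for Ndufa1 (88.0 CPM, the others at 67.0 to 68.6) and Ndufaf3 (23.8 CPM, the others at 17.0 to 17.5). CDH11-/- replicate 4 was low for Ndufaf1 (14.2 CPM, the others at 16.4 to 16.5), and CDH11-/- replicate 3 was low for Ndufa3 (97.4 CPM, the others at 107 to 108). The mean score of Ndufa4 and Ndufa4l2 was high in CDH11-/- replicate 1 (0.13, the others at -0.08 to -0.05).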

How the results depend on the processing

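Over the 18 alternatives the median log2 fold change stayed between -0.21 and -0.05 for subunit symbols and between -0.16 and -0.07 for assembly factors, and 38 to 45 of 46 members were negative. The number of Nduf genes called was 0 except with 1 surrogate variable (1 gene) and without single libraries (0 to 3 genes, the 3 without CDH11+/+ replicate 1). The number of all genes called was 208 with no filter on low counts, 520 with DESeq2, 679 with limma-voom, 54 with limma on the authors' values, 50 with the authors' factors as offsets, 535 with 1 surrogate variable, and 26 to 1004 without single libraries. For injured tubule markers the median was -0.2001 to -0.0082 without single libraries, and -0.0082 was reached without CDH11+/+ replicate 1. The median level of the complex I subunits was 221 TPM with the longest transcript as length. The cause of these shifts was not tested. Scaling by library size alone moved the median of all genes from -0.01 to 0.04. No paired analysis was possible because the labels give no replicate numbers. Complex I subunits had at least 293 counts per library and assembly factors at least 90, and the part of counting error in the spread was not tested. With 4 libraries a group, the 95% interval of a subunit reached a median of 0.24 to either side of its log2 fold change, wider than the median difference.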
